A study of Mus musculus with 22 samples.

Results

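The 10 genes described here encode ubiquitin ligases that have been tied to muscle wasting: Trim63, Fbxo32, Trim54, Trim55, Fbxo31, Fbxo30, Cblb, Mdm2, Stub1 and Nedd4. They were chosen by name, with no threshold on expression, and all 10 were found among the 30735 Ensembl genes of the deposited tables, of which 30074 have a symbol in the annotation. RNA was sequenced from left ventricular tissue of FVB mice aged 3 to 5 months, in 22 libraries. The animals were either wild type (WT) or had a VCP transgene (VCP TG). The product of Vcp is an ATPase that pulls ubiquitinated proteins out of membranes and complexes. The heart was either left unloaded by a sham operation or loaded by transverse aortic constriction (TAC), in which the aorta is narrowed so that the left ventricle pumps against a higher pressure. The groups were WT sham (n = 4), VCP TG sham (n = 4), WT after 2 weeks of TAC (n = 4), VCP TG after 2 weeks of TAC (n = 3), WT after 5 weeks of TAC (n = 4) and VCP TG after 5 weeks of TAC (n = 3). The first 4 groups came in 1 table of 15 libraries. The 5-week groups came in another table of 7 libraries, with no sham group analysed here. The promoter that drives the transgene, the number of transgenic lines and whether each library is 1 animal were not given in the sources used here, so p-values measure the spread between libraries.

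A ubiquitin ligase brings a target protein together with a ubiquitin-loaded enzyme, and the ubiquitin chains it builds send the target to the proteasome or change its place in the cell. In striated muscle Trim63 (MuRF1) and Fbxo32 (atrogin-1) are the classic markers of atrophy. FoxO transcription factors switch both genes on during fasting, denervation and disuse, and growth signals through the kinase Akt hold FoxO back. In the heart the MuRF proteins associate with titin in the sarcomere, and atrogin-1 is the substrate-binding part of an SCF complex, a ligase built on a cullin scaffold.

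Several libraries stood apart in ways that touch these genes. Levels are in transcripts per 1000000 (TPM), so the values of a library share a fixed total, and the read depth is unknown. The mitochondrially encoded genes took 27.9% to 72.9% of that total, with the highest share in VCP TG sham library 4. That library held the lowest value of the 15 in the 2-week table for 9 of the 10 genes, and for 5 of 10 once levels were rescaled to 1000000 over nuclear protein-coding genes. Vcp stood at 62.1 ± 15.4 TPM in WT sham hearts and at 126 ± 53.4 TPM in VCP TG sham hearts (SD, n = 4 each). In 5 of 22 libraries Vcp went against the genotype label when the rescaled values were split into a low and a high cluster; these were the libraries labelled VCP TG sham 1, WT 2 weeks TAC 1, WT 5 weeks TAC 2, WT 5 weeks TAC 3 and VCP TG 5 weeks TAC 3. In 4 libraries (VCP TG sham 3, VCP TG sham 4, WT 2 weeks TAC 1 and VCP TG 2 weeks TAC 2) the atrial myosin light chain Myl7 reached at least 300 TPM, although the tissue is labelled left ventricular. All 9 cardiomyocyte markers examined were detected in every group, with a summed level of 16210 to 32820 TPM per library. In these bulk samples, fewer cells of a type and less RNA per cell cannot be told apart.

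All 10 genes reached 1 TPM in all 22 libraries. In WT sham hearts Nedd4 had the highest mean level at 108 ± 33.2 TPM, followed by Trim54 at 87.2 ± 10.2 TPM and Trim63 at 71.8 ± 21.2 TPM (SD, n = 4). The libraries of these 3 genes overlapped, so their order was not resolved. A middle block held Fbxo31 at 28.3 ± 5.05 TPM, Trim55 at 27.3 ± 1.02 TPM, Mdm2 at 25.3 ± 5.88 TPM, Stub1 at 23.1 ± 5.16 TPM and Fbxo32 at 20.1 ± 4.504 TPM, and neighbours within it overlapped as well. Cblb at 7.14 ± 2.07 TPM and Fbxo30 at 5.39 ± 2.92 TPM were the lowest, and each of their libraries was below every library of the middle block. TPM is a level per transcript length, so these levels can be set side by side. Nedd4, Trim54 and Trim63 had the 3 highest means in all 6 groups, and Cblb and Fbxo30 the 2 lowest.

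**Figure D1:**
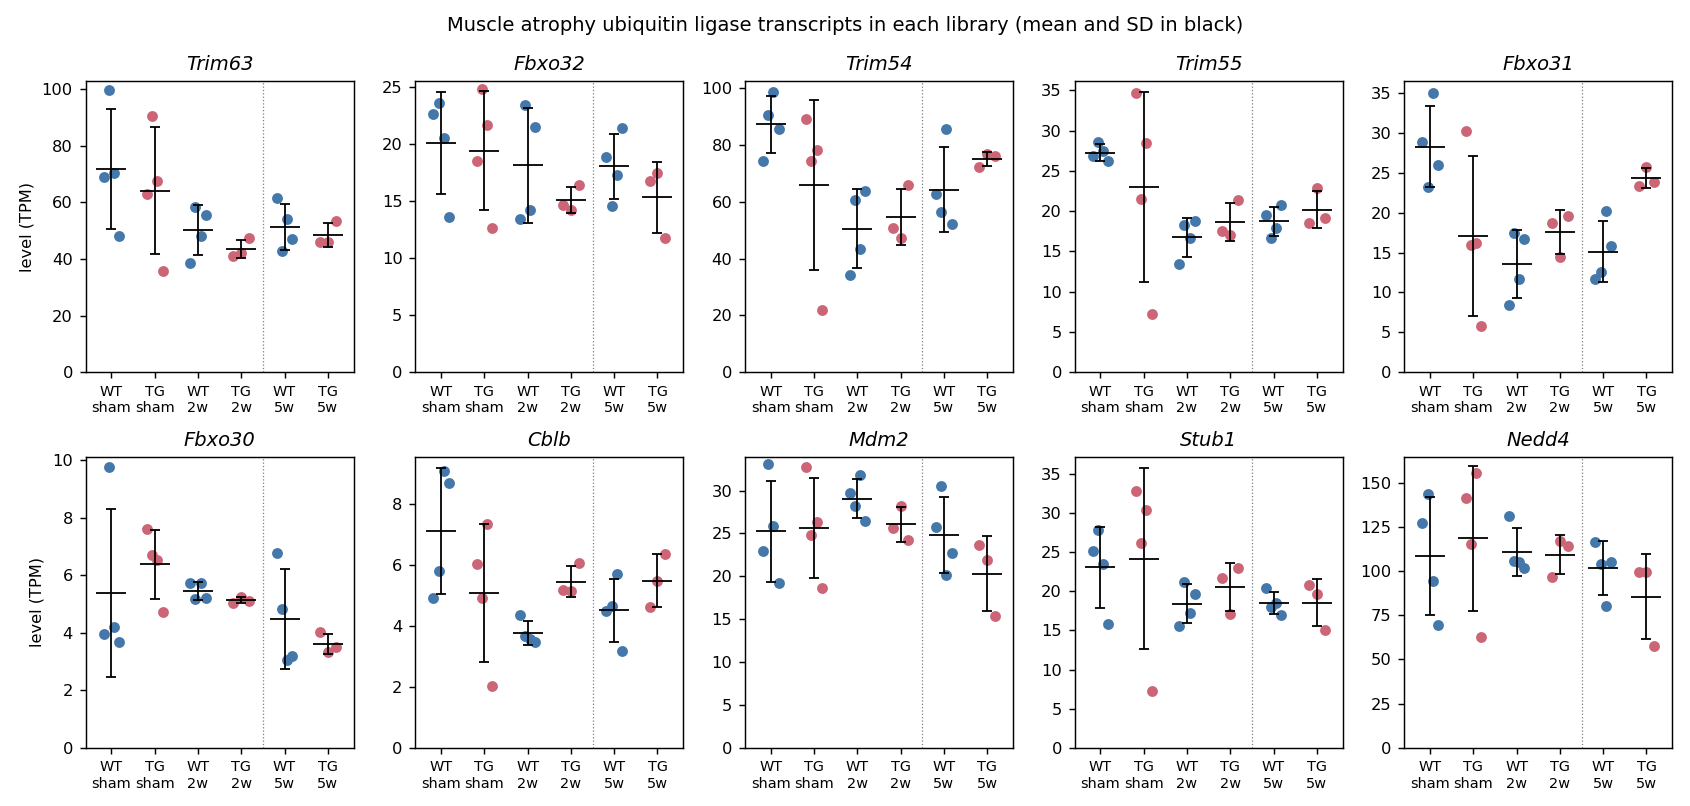
TPM of each of the 10 genes in each library, with WT libraries in blue, VCP TG libraries in red, and the group mean and SD in black (n = 4 or 3); a dotted line separates the 2-week and the 5-week tables. Trim54, Trim55, Fbxo31 and Cblb are lower in every WT library after 2 weeks of TAC than in any WT sham library, while the VCP TG sham points spread widely.

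The first question was what load alone does, so WT hearts after 2 weeks of TAC were set against WT sham hearts. Fbxo31, Trim54, Trim55 and Cblb were lower in all 4 TAC libraries than in any of the 4 sham libraries. The differences were -1.05 ± 0.35 for Fbxo31, -0.81 ± 0.34 for Trim54, -0.74 ± 0.28 for Cblb and -0.68 ± 0.33 for Trim55 on the log2(TPM + 1) scale (± standard error). The classic markers Trim63 and Fbxo32 were not higher under load: their differences were -0.48 ± 0.28 and -0.15 ± 0.26. How firm these differences are depends on which libraries set the spread. With the spread taken over all 4 groups of the table, limma called 0 of the 10 genes at an adjusted p under 0.05, as it called 0 of all 15540 genes tested (0% of the background). At an unadjusted p under 0.05 it had 3 of the 10 genes (Fbxo31, Cblb and Trim54) against 11.4% of all genes. In a fit of the WT libraries alone, 4 of the 10 genes passed, all lower, against 6.31% of 13709 genes that passed and were lower. The VCP TG sham libraries, which enter the first fit and not the second, had a median SD of 0.57 over genes (log2), against 0.31 for the WT sham libraries. The 4 genes that passed were those whose groups did not overlap, against 13.7% of all genes that were apart and lower.

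In the fit over all groups the median difference over all genes tested was -0.13, with 64.2% of genes lower. The median over the 10 members was -0.39, with 7 of 10 lower. For the genes tested in the WT libraries alone the median was -0.16, with 67.9% lower. Quantile normalization of the WT libraries brought the median of all genes to -0.00396 and left Fbxo31 at -0.86, Trim54 at -0.71, Cblb at -0.53 and Trim55 at -0.48, with none past the threshold (adjusted p by limma 0.0758, 0.0844, 0.162 and 0.0814). On that scale 635 genes passed, of which 311 were lower, where 865 of 964 had been lower before it. Mdm2 at 0.22 ± 0.23, Fbxo30 at 0.11 ± 0.26 and Nedd4 at 0.08 ± 0.29 had values above 0, and Stub1 was at -0.29 ± 0.34. None of these 4 passed in either fit.

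**Figure D2:**
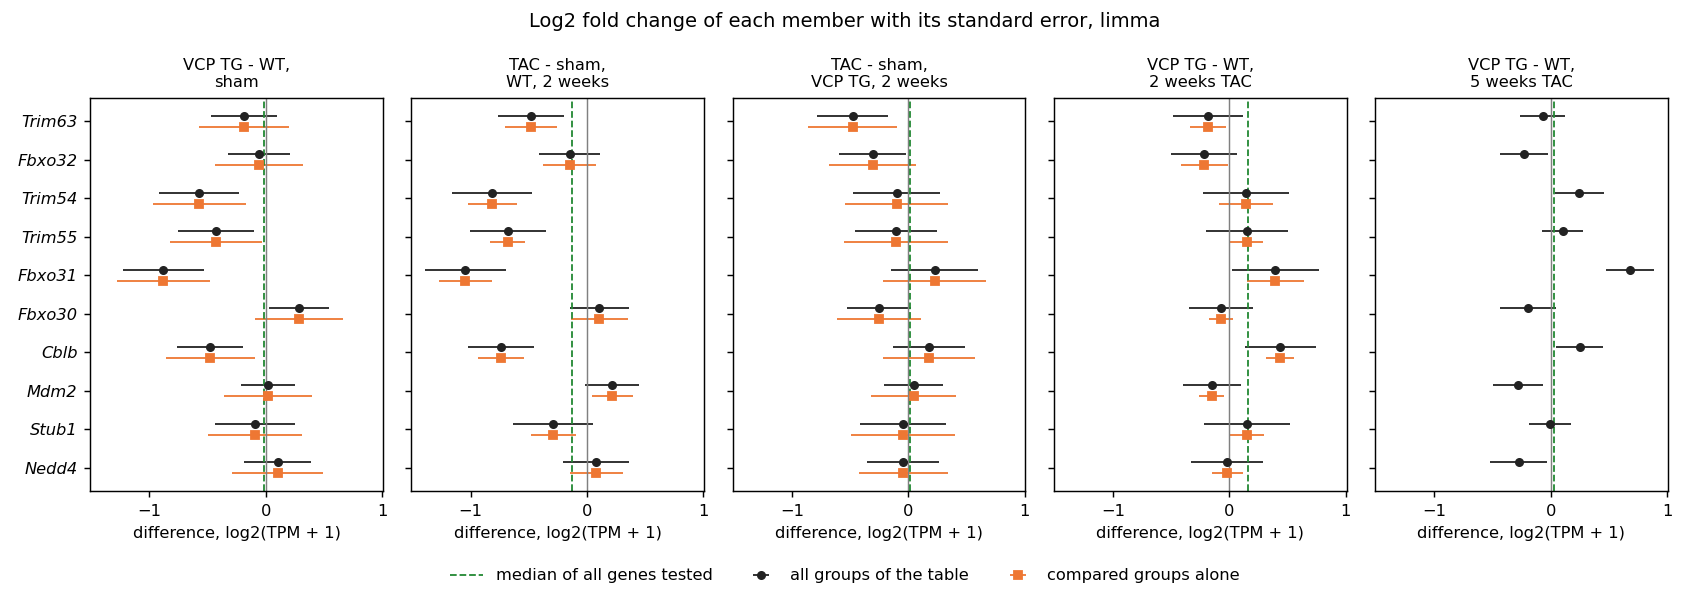
Difference in log2(TPM + 1) with its standard error for each gene and comparison, from limma fits over all groups of a table (black circles) and over the 2 compared groups alone (orange squares); the dashed green line is the median of all genes tested. In WT hearts after 2 weeks of TAC Fbxo31, Trim54, Cblb and Trim55 lie to the left of the dashed line at -0.13, and at 5 weeks Fbxo31 lies at 0.68.

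The MuRF family was the first group by role. Trim54 (MuRF3, ENSMUSG00000062077, GRCm38 chromosome 5, 31116712 to 31137630, plus strand) binds microtubules and the sarcomere. Its level was 74.4, 90.4, 98.7 and 85.5 TPM in the WT sham libraries and 34.3, 60.5, 43.5 and 63.7 TPM in the WT libraries after 2 weeks of TAC. The highest TAC library lay below the lowest sham library. The adjusted p was 0.398 over all groups and 0.0443 in the fit of WT libraries alone (limma, Benjamini-Hochberg). Of its 31-base words, 21.1% also occur on the opposite strand in the transcript of Gm15469. Whether the authors' counting used strand was not given in the sources used here, so the level of Trim54 is uncertain to that extent.

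Trim55 (MuRF2, ENSMUSG00000060913, chromosome 3, 19644474 to 19692421, plus strand) is a MuRF protein that moves between sarcomere and nucleus. It was tightly grouped in WT sham hearts, at 26.8, 28.6, 27.5 and 26.3 TPM. After 2 weeks of TAC the WT libraries stood at 13.4, 18.3, 16.6 and 18.8 TPM, all below the sham range. The adjusted p by limma was 0.438 over all groups and 0.0290 in the WT libraries alone. Trim54 and Trim55 were thus the 2 MuRF genes that separated WT load from WT sham in each library.

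Trim63 (MuRF1, ENSMUSG00000028834, chromosome 4, 134315120 to 134329629, plus strand) targets thick-filament proteins. It stood at 68.9, 99.8, 70.3 and 48.2 TPM in WT sham and at 38.6, 58.3, 47.97 and 55.6 TPM in WT TAC libraries at 2 weeks. The groups overlapped through WT sham library 4, and the difference of -0.48 did not pass (adjusted p by limma 0.509 over all groups and 0.204 in the WT libraries alone). The 3 MuRF genes are paralogs, and the share of their 31-base transcript words that any other gene holds on the same strand was 0.352% for Trim63, 0.0% for Trim54 and 0.266% for Trim55.

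The F-box members are substrate adaptors of SCF complexes. Fbxo31 (ENSMUSG00000052934, chromosome 8, 121549440 to 121578806, minus strand) is an adaptor known from cell-cycle arrest after DNA damage, where it targets cyclin D1. It had the largest difference of the 10 genes. WT sham libraries stood at 28.8, 23.3, 35.1 and 26.0 TPM and WT TAC libraries at 8.41, 17.4, 11.7 and 16.7 TPM. The means were 28.3 ± 5.05 and 13.5 ± 4.26 TPM (SD, n = 4 each), and no TAC library reached the lowest sham library. The adjusted p by limma was 0.331 over all groups and 0.0282 in the WT libraries alone.

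Fbxo32 (atrogin-1, ENSMUSG00000022358, chromosome 15, 58175879 to 58214932, minus strand) targets calcineurin and MyoD among others. It ran from 13.6 to 23.6 TPM in WT sham and from 13.4 to 23.4 TPM in WT TAC libraries at 2 weeks, so the ranges were nearly the same. Quantile normalization turned its small difference to 0.05. Fbxo30 (MUSA1, ENSMUSG00000047648, chromosome 10, 11281330 to 11298052, plus strand) is an F-box ligase that BMP signalling holds down in muscle. Its level was 5.17 to 5.73 TPM in WT TAC libraries, inside the WT sham range of 3.67 to 9.76 TPM.

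Of the remaining members, Cblb and Nedd4 act on receptors and signalling proteins, Mdm2 on p53 and Stub1 on misfolded proteins. Cblb (ENSMUSG00000022637, chromosome 16, 52031225 to 52208048, plus strand) targets insulin receptor substrate 1 in unloaded muscle. It stood at 4.93, 5.82, 9.10 and 8.69 TPM in WT sham and at 4.37, 3.67, 3.57 and 3.49 TPM in WT TAC libraries at 2 weeks. The TAC libraries were close together and all below the sham range. The adjusted p by limma was 0.374 over all groups and 0.0485 in the WT libraries alone, which is next to the threshold.

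Nedd4 (ENSMUSG00000032216, chromosome 9, 72662346 to 72749852, plus strand), a HECT-type ligase of membrane proteins, ran from 69.2 to 143 TPM in WT sham and from 102 to 131 TPM in WT TAC libraries. Mdm2 (ENSMUSG00000020184, chromosome 10, 117688875 to 117710758, minus strand) ran from 19.2 to 33.1 TPM and from 26.4 to 31.9 TPM. Stub1 (CHIP, ENSMUSG00000039615, chromosome 17, 25830505 to 25833404, minus strand), which works with heat shock chaperones, ran from 15.8 to 27.8 TPM and from 15.6 to 21.3 TPM. The ranges of all 3 genes overlapped between WT sham and WT TAC. For Stub1, 37.0% of the 31-base words occur on the opposite strand of its neighbour Jmjd8, which is the highest such share of the 10 genes; its level is uncertain to that extent.

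Other measured features moved with the WT comparison, and their part in it was not tested. The mitochondrial share was 46.0% to 56.8% in WT sham and 55.5% to 60.9% in WT TAC libraries. Genes without a symbol in the annotation took 11.7% to 15.4% of the total in WT sham and 4.18% to 8.76% in WT TAC libraries, with no overlap. The mean level of 1462 olfactory and vomeronasal receptor genes was 0.0443 to 0.0733 TPM in WT sham and 0.109 to 0.197 TPM in WT TAC libraries, with no overlap. The summed level of 8 endothelial markers, all detected, was 325 to 422 TPM in WT sham and 222 to 242 TPM in WT TAC libraries, and Esam, Flt1 and Tie1 of that list passed as lower in the fit of WT libraries alone. Of the 9 cardiomyocyte markers 1, the transcription factor Nkx2-5, passed as lower, at -0.78 ± 0.20. In other settings of that fit Ttn passed as lower after quantile normalization and Actc1 as higher without WT sham 2. The 8 macrophage markers summed to 80.6 to 133 TPM in WT sham and 102 to 281 TPM in WT TAC libraries. None passed in the fit of WT libraries alone. In its alternatives Lyz2 passed as higher with a replicate block and without WT sham 1, and Adgre1 without WT sham 1. The 8 atrial markers summed to 43.0 to 163 TPM in WT sham and 53.5 to 9646 TPM in WT TAC libraries, and the 6 red cell markers to 23.4 to 104 TPM and 64.3 to 140 TPM. The summed level of the 11 skeletal muscle markers was 776 to 1166 TPM in WT sham and 377 to 705 TPM in WT TAC libraries, again with no overlap. Only 3 of the 11 passed the filter on low values. Acta1 (skeletal actin) alone averaged 374 TPM in WT sham and 181.5 TPM in WT TAC libraries. The sum thus rests on few genes and does not measure skeletal muscle content. None of the 3 that were tested passed, but Ckm (muscle creatine kinase) passed as lower after rescaling to nuclear genes and after quantile normalization, and Acta1 with a replicate block. In the fit of WT libraries alone no marker of the atrial or red cell lists, nor of fibroblasts, smooth muscle or lymphocytes, passed. Of these lists only the smooth muscle marker Pdgfrb passed in other settings of that fit. It was lower after rescaling to nuclear genes and without WT sham 4.

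On the scale of nuclear protein-coding genes the 4 members were still apart: Fbxo31 ran from 57.5 to 104 in WT sham against 24.4 to 52.2 in WT TAC libraries, Trim54 from 216 to 302 against 99.5 to 187, Trim55 from 70.7 to 92.9 against 38.9 to 55.2, and Cblb from 14.3 to 30.8 against 10.3 to 12.7. On that scale 3 of them passed in the WT libraries alone, against 9.20% of all genes that passed and were lower, and Cblb did not (adjusted p by limma 0.0651). The share of all genes that were apart and lower on that scale was not computed.

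Single libraries and settings decided the count of passing genes. The share of all genes that passed as lower moved with it. In the WT libraries alone, 0 of the 10 genes passed with no filter on low values (0.429% of all genes lower) and 2 passed with a replicate block (3.81%). Leaving out WT sham 3 or WT 2 weeks TAC 3 left 0 of the 10 (0.358% and 0.222% of all genes). Leaving out WT 2 weeks TAC 1, 2 or 4 left Fbxo31 alone (2.85%, 1.03% and 1.44%). Leaving out WT sham 1 or 2 left 2 (4.48% and 4.28%), and leaving out WT sham 4 left 3 (14.9%). WT 2 weeks TAC 1 is both rich in atrial transcripts and against its label in Vcp. Without the 4 libraries rich in atrial transcripts, the fit over all groups called Cblb at -0.79, Fbxo31 at -0.85 and Trim54 at -0.64 (adjusted p by limma 0.0350, 0.0380 and 0.0484), against 7.40% of 14618 genes that passed and were lower. Without the libraries whose Vcp went against the label, it called 0 of the 10 genes, as it called 0 of all 15326 genes tested, and Fbxo31 stood at -0.85.

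**Figure D3:**
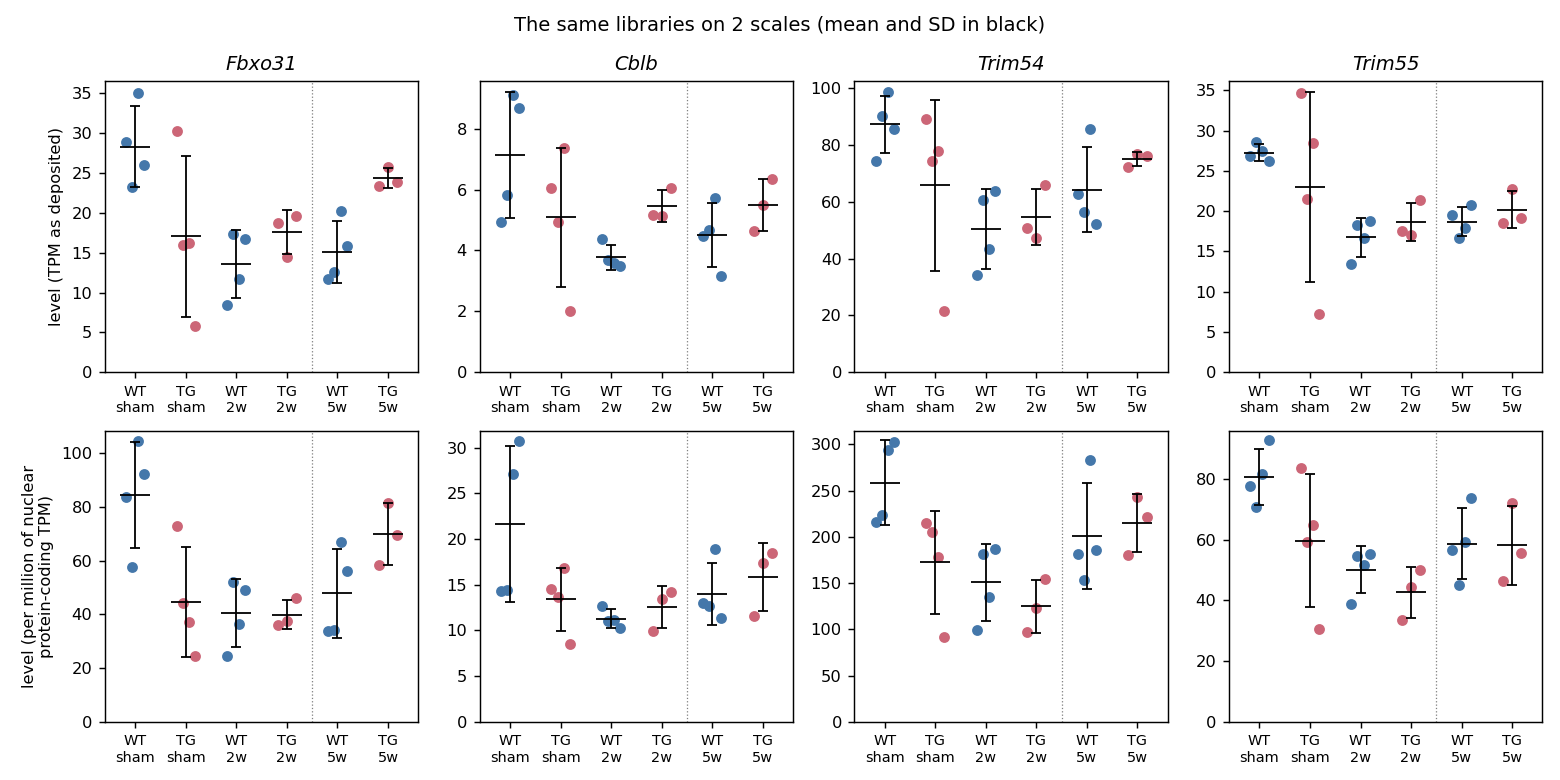
Levels of Fbxo31, Cblb, Trim54 and Trim55 per library in TPM as deposited (upper row) and rescaled to 1000000 over nuclear protein-coding genes (lower row), with WT in blue, VCP TG in red, and mean and SD in black. In both rows the 4 WT libraries after 2 weeks of TAC lie below the 4 WT sham libraries, and Fbxo31 at 5 weeks of TAC separates the genotypes only in the upper row.

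The promoters of the 2 genes with the largest WT differences, Fbxo31 and Trim54, and of the 2 members with a FoxO element, Trim63 and Mdm2, are printed for comparison; the latter pair was chosen after the match was seen. Each is the 250 bases before the start of the gene in RefSeq on GRCm38.p6, 5′ to 3′ on the gene's strand. Capitals mark the FoxO element GTAAACA, or TGTTTAC where it lies on the other strand, and the E-box CANNTG, the site of MyoD-type factors, which reads CANNTG on both strands. The positions are chr8:121578807-121579056 for Fbxo31 (minus strand), chr5:31116362-31116611 for Trim54 (plus), chr4:134314870-134315119 for Trim63 (plus) and chr10:117710759-117711008 for Mdm2 (minus).
Fbxo31: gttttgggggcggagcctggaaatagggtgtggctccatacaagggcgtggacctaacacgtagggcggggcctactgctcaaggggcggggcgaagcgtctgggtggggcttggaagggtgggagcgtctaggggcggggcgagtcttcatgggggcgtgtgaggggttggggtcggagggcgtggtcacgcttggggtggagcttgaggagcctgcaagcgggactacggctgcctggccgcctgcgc
Trim54: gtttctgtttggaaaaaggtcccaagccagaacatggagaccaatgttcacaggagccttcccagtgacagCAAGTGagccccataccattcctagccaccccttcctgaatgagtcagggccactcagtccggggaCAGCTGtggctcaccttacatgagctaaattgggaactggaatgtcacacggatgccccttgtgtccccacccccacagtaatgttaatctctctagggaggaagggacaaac
Trim63: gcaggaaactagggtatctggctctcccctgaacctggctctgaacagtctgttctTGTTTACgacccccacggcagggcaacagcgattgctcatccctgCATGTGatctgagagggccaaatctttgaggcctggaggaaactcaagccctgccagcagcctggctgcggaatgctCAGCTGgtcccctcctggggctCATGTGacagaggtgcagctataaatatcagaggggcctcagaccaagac
Mdm2: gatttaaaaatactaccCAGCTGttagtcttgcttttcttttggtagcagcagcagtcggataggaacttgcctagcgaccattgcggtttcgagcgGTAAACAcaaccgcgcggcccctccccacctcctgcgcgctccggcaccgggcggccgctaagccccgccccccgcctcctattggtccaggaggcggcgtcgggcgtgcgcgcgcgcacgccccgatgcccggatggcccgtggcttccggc

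RefSeq's table held 9 windows for 8 of the 10 genes, 2 of them for Nedd4 and none for Fbxo32 and Trim55. The FoxO element was in 2 of the 9 windows, 194 bases before the start in Trim63 and 153 bases before it in Mdm2, against 3.17% of 32851 windows of the same length. An E-box was in 6 of the 9 against 66.2% of windows; of Nedd4's 2 windows 1 held it. Fbxo31 held neither motif and had a GC content of 68.0%, and Trim54 held 2 E-boxes at 52.8% GC. A match describes letters only.

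Genes around the ligases were read from lists of the same pathway, in the fit of WT libraries alone, where the median over all genes was -0.16 and 6.31% of genes passed as lower. Of 20 regulators of the atrophy programme, 18 were tested, 4 fell, 0 rose and the median was -0.57. They were Foxo4, a FoxO factor, which went from 8.20 ± 1.02 to 3.99 ± 0.46 TPM (difference -0.88 ± 0.16, adjusted p by limma 0.0163); Nfkbia, the inhibitor of NF-kappaB, from a range of 14.5 to 44.3 TPM to one of 6.15 to 9.73 TPM (-1.62 ± 0.31, adjusted p by limma 0.0213); Akt1, from 31.6 ± 7.29 to 19.0 ± 0.53 TPM (-0.68 ± 0.18, adjusted p by limma 0.0451); and the histone deacetylase Hdac4, which denervation induces in muscle, from 35.8 ± 4.35 to 20.02 ± 8.20 TPM (-0.88 ± 0.24, adjusted p by limma 0.0479). Foxo4 and Akt1, a FoxO factor and the kinase that restrains it, were both lower. Among the alternatives of this fit, Akt1 passed only with a pseudocount of 0.1, after rescaling to nuclear genes and without WT sham 4.

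Of 14 textbook FoxO targets other than the ligases, 0 passed, and the median was -0.27. The 3 with the smallest p were the repressor Bcl6 at -0.82 ± 0.25, Txnip, an inhibitor of thioredoxin, at -0.97 ± 0.33 and Gabarapl1, an autophagosome protein, at -0.50 ± 0.17. Of the p53 targets 9 of 10 were tested and 0 passed, with a median of -0.19; Aen, a nuclease, stood at -0.63 ± 0.19. The adjusted p by limma was 0.0691 for Bcl6 and 0.0655 for Aen.

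Of 24 other ubiquitin ligases of muscle 3 fell, against 6.31% of all genes, 0 rose and the median was -0.28. Huwe1, a giant HECT ligase, went from 89.5 ± 14.8 to 56.1 ± 1.45 TPM and Ubr2, of the N-degron pathway, from 22.2 ± 2.92 to 13.8 ± 2.57 TPM. Among 7 tested genes of the SCF core 0 passed (median -0.03), and Nedd8, the modifier that activates cullins, stood at 0.65 ± 0.21. Of 16 ubiquitin, E1 and E2 genes 1 fell, a share near the 6.31% of all genes: Ube2j2, an E2 of the endoplasmic reticulum, from 20.1 ± 1.87 to 11.4 ± 0.90 TPM; the median was 0.08. The list of other ligases had a median below that of all genes, and the list of E1 and E2 genes a median above it.

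Of 22 genes of known or proposed substrates 4 fell, 0 rose and the median was -0.34, beside the 6.31% of all genes that fell. Myh7, the slow myosin heavy chain, went from 411 ± 55.9 to 188 ± 29.1 TPM, Bag3, a co-chaperone, from 114 ± 29.3 to 59.3 ± 4.73 TPM, and Mybpc3, cardiac myosin-binding protein C, from 400 ± 62.3 to 225 ± 34.1 TPM. The fourth was the fast myosin heavy chain Myh6 at -0.72 ± 0.17. These counts moved with the setting. With single WT libraries left out, 0 to 8 regulators, 0 to 8 other ligases and 0 to 7 substrates fell. In the same settings 0.222% to 14.9% of all genes passed as lower, and the highest counts came without WT sham 4 (14.9%). Without WT 2 weeks TAC 1 (2.85%) the regulators that fell were Foxo4 and Nfkbia, the substrate was Myh7 and no other ligase passed. After quantile normalization 2.27% of all genes passed as lower. On that scale Foxo4 was the 1 regulator and Huwe1 the 1 other ligase that fell, and 5 substrates fell. Nedd8, the SCF subunit Skp1a, the E2 genes Ube2e1 and Ube2l3 and the FoxO target Map1lc3b, an autophagosome protein, rose there. Other FoxO and p53 targets also passed as lower in single settings: Bcl6 with a replicate block, Pdk4 without WT sham 1, Cited2 and Trp53inp1 without WT sham 2, and Bax without WT sham 4. Leaving out WT sham 3 or WT 2 weeks TAC 3 (0.358% and 0.222% of all genes lower) left none past the threshold in 4 lists. These were the regulators, the other ligases, the E1 and E2 genes and the substrates. In the fit over all groups no gene of any list passed in any of the 7 comparisons.

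The second question was what the VCP transgene does in unloaded hearts. No member passed between VCP TG sham and WT sham (0 of 10, with 0% of all genes), and no member separated the groups. The share of all genes that separated them was not computed. The VCP TG sham libraries had the widest spread of the groups (median SD 0.57 over genes, log2). At an unadjusted p under 0.05 the fit had 1 of the 10 genes, Fbxo31, against 3.96% of all genes. Fbxo31 stood at 30.3, 16.00, 16.2 and 5.75 TPM in VCP TG sham against 23.3 to 35.1 TPM in WT sham libraries, a difference of -0.88 ± 0.35 (adjusted p by limma 1). VCP TG sham library 1 was in the WT range of Fbxo31 and the other 3 were below it. Vcp in library 1 was in the low cluster, but at 89.1 TPM it was above the highest WT sham library, at 82.6 TPM. Trim54 stood at 89.1, 74.5, 78.1 and 21.7 TPM, Trim55 at 34.7, 21.5, 28.5 and 7.24 TPM and Cblb at 6.05, 4.94, 7.37 and 2.01 TPM. In each of these 3 genes VCP TG sham library 4 alone was far below the rest, with differences of -0.57 ± 0.34 for Trim54, -0.43 ± 0.33 for Trim55 and -0.48 ± 0.28 for Cblb. Without that library the differences were -0.11, 0.02 and -0.17, and -0.47 for Fbxo31. With VCP TG sham library 1 left out instead, the difference of Fbxo31 was -1.21.

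**Figure D4:**
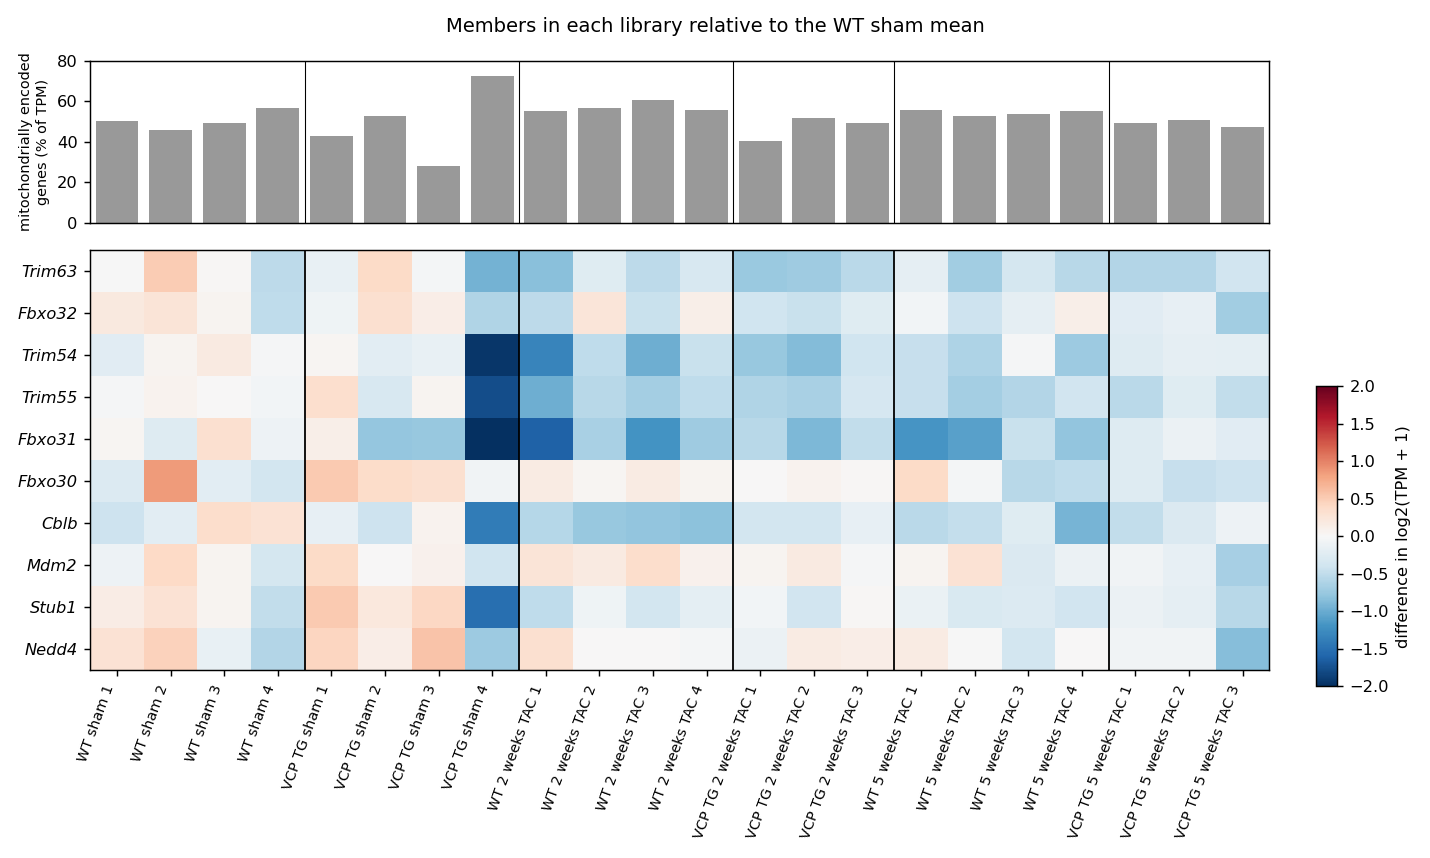
Each gene in each library as the difference in log2(TPM + 1) from its WT sham mean (colour, blue lower and red higher, colours saturating at 2 in either direction), below bars of the mitochondrial share of TPM. VCP TG sham library 4, with a share of 72.9%, is the darkest blue in Trim54, Trim55, Fbxo31, Cblb and Stub1.

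Trim63 and Fbxo32 did not separate the genotypes either. VCP TG sham hearts had Trim63 at 62.9, 90.5, 67.6 and 35.7 TPM and Fbxo32 at 18.5, 24.9, 21.6 and 12.6 TPM, and both ranges overlapped the WT sham range. The median over the 10 genes was -0.14, against -0.01 over all genes.

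Load in VCP TG hearts was read from 3 TAC libraries against 4 sham libraries at 2 weeks. No member passed (0 of 10), where limma called 0.772% of all genes, and 0 of 10 had an unadjusted p under 0.05, against 8.77%. Trim63 stood at 41.2, 42.1 and 47.4 TPM in VCP TG TAC libraries, a difference of -0.48 ± 0.30 (adjusted p by limma 0.910). Fbxo32 stood at 14.6, 14.2 and 16.4 TPM, a difference of -0.31 ± 0.28. For both genes the TAC libraries lay within the sham range only through VCP TG sham library 4, and they were below each of the other 3 sham libraries. The same held for Trim54, Trim55, Stub1 and Fbxo30, so it was not particular to the classic markers. The share of all genes apart in this way was not computed. Without VCP TG sham library 4 the differences were -0.73 for Trim63 and -0.49 for Fbxo32 (adjusted p by limma 0.139 and 0.254). Trim54, at 50.9, 47.3 and 65.9 TPM, differed by -0.10 ± 0.37, and Trim55, at 17.5, 17.04 and 21.4 TPM, by -0.11 ± 0.35. Fbxo31 was at 18.8, 14.5 and 19.6 TPM and Cblb at 5.18, 5.15 and 6.07 TPM, with differences of 0.23 ± 0.38 and 0.18 ± 0.31. These small values rest on VCP TG sham library 4: without it they were -0.56 for Trim54, -0.56 for Trim55, -0.18 for Fbxo31 and -0.13 for Cblb, none of which passed.

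The response to load was then compared between the genotypes as a difference of differences, VCP TG minus WT. No member passed (0 of 10, against 0.00644% of all genes). At an unadjusted p under 0.05 there were 2 of the 10 genes, Fbxo31 at 1.27 ± 0.51 and Cblb at 0.91 ± 0.42, against 5.01% of all genes. Both had an adjusted p by limma of 0.872. Trim54 stood at 0.71 ± 0.51 and Trim55 at 0.58 ± 0.48, over a median of 0.22 for all genes. Leaving out VCP TG sham library 4 brought Fbxo31 to 0.87, Cblb to 0.61, Trim54 to 0.25 and Trim55 to 0.12.

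Under load itself the genotypes were compared at 2 weeks and again at 5 weeks. At 2 weeks no member passed over all groups (0 of 10, against 0.0901% of all genes), nor in the 7 TAC libraries alone (0 of 10, against 0.0565%). At an unadjusted p under 0.05 the fit over all groups had 0 of 10, against 9.58%. Cblb was the 1 member whose groups did not overlap, higher in VCP TG at 5.18, 5.15 and 6.07 TPM than in WT at 4.37, 3.67, 3.57 and 3.49 TPM, where 19.0% of all genes were apart and higher. Its difference was 0.44 ± 0.31 (adjusted p by limma 0.830; 0.0843 in the TAC libraries alone), over a median of 0.16 for all genes. On the scale of nuclear protein-coding genes the groups overlapped, from 9.92 to 14.2 in VCP TG and from 10.3 to 12.7 in WT libraries. The mitochondrial share was 40.2% to 51.6% in VCP TG and 55.5% to 60.9% in WT libraries. The mean level of the olfactory and vomeronasal receptor genes was 0.310 to 0.842 TPM against 0.109 to 0.197 TPM. Neither feature overlapped between the genotypes, and their part was not tested. Fbxo31 differed by 0.40 ± 0.38 and Trim63 by -0.18 ± 0.30, and both overlapped.

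At 5 weeks of TAC no member passed (0 of 10, against 0.00715% of 13986 genes). Fbxo31 was higher in all 3 VCP TG libraries, at 23.4, 25.8 and 23.9 TPM, than in the 4 WT libraries, at 11.7, 12.6, 20.2 and 15.8 TPM. The difference was 0.68 ± 0.21 (unadjusted p by limma 0.00790, adjusted 0.904). It was the 1 of 10 genes at an unadjusted p under 0.05, against 4.49% of all genes, and the 1 of 10 apart and higher, against 3.40%. On the scale of nuclear protein-coding genes the groups overlapped, at 58.5, 81.5 and 69.4 in VCP TG against 33.9, 34.2, 67.0 and 56.3 in WT libraries. Without the 3 libraries whose Vcp went against the label, only WT 5 weeks TAC 1 and 4 and VCP TG 5 weeks TAC 1 and 2 remained. With so few libraries the difference was 0.80, again not past the threshold.

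The other genes overlapped between the genotypes at 5 weeks. Trim54 stood at 72.2, 76.8 and 76.0 TPM in VCP TG and at 62.7, 56.3, 85.7 and 52.2 TPM in WT libraries, a difference of 0.25 ± 0.21. Cblb ran from 4.64 to 6.36 TPM and from 3.18 to 5.72 TPM, a difference of 0.25 ± 0.20. Trim63 ran from 46.1 to 53.3 TPM and from 42.7 to 61.5 TPM, and Fbxo32 from 11.7 to 17.5 TPM and from 14.6 to 21.4 TPM. The genotype difference was also compared between 5 and 2 weeks, where time and table cannot be told apart. No member passed (0 of 10, against 0.00612% of all genes, and 0 of 10 at an unadjusted p under 0.05, against 1.98%), with Fbxo31 at 0.29 ± 0.48 and Cblb at -0.19 ± 0.39.

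Members also varied together from library to library, which is given as a description. Over the 15 libraries of the 2-week table, deviations from the group means had a Pearson r of 0.907 for Trim63 with Fbxo32, 0.950 for Trim54 with Trim55, 0.914 for Trim54 with Fbxo31 and 0.837 for Fbxo30 with Mdm2. Without VCP TG sham library 4 they were 0.869, 0.758, 0.784 and 0.822 over 14 libraries, and Trim63 with Trim55 went from 0.659 to 0.126. The points share the total of each library. Likeness to other genes was read from log2(TPM + 1) itself, with group means left in and VCP TG sham library 4 kept. Among 7277 genes, those most like Trim63 over the 15 libraries were Pfkfb2 (r = 0.953), Twf2 (0.943), Dmxl2 (0.930), Pnrc1 (0.922) and Plekhm2 (0.910). Over the 7 libraries at 5 weeks the same genes had an r of 0.666, 0.561, 0.182, 0.239 and -0.23. Those most like Fbxo32 were Cobl (0.905), Trim63 (0.892), Pfkfb2 (0.890), Def8 (0.870) and Dmxl2 (0.865), with an r of 0.444, 0.0497, 0.133, 0.429 and 0.284 at 5 weeks.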

How the data were processed

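Left ventricular RNA was sequenced in 22 libraries in 6 groups. Per the labels, RNA came from Qiagen's miRNeasy kit and libraries from Illumina's TruSeq Stranded mRNA kit. The authors deposited TPM values for 30735 genes; each column sums to 1000000, so depth is unknown. Trimmomatic 0.35, kallisto 0.43.1, STAR 2.5.4b, DESeq2 and GRCm38 are named in the submitters' processing notes without their role. Gene positions are from GENCODE M21.

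The members and lists were chosen with earlier results of these data known. Tests used limma 3.58.1 (R 4.3.3) on log2(TPM + 1), a scale that understates changes of low genes, with trend and robust moderation, on genes that reached 1 TPM in 3 or more libraries. P-values were two-sided, adjusted by Benjamini-Hochberg over the genes tested, and called under 0.05. The procedure was tested on simulated data with the same spread in every group and larger changes than the members had. That test does not cover the unequal spread of the groups here. Each table was fitted with 1 mean per group and 1 shared spread; for the difference between time points all 6 groups were fitted together. Fits of the compared groups alone were alternatives. The other alternatives were a pseudocount of 0.1, no filter, TPM rescaled over nuclear protein-coding genes, quantile normalization, a replicate block, no trend or robust moderation, and libraries left out; those of the fit of WT libraries alone were added after seeing the data. The text names all 10 members, from each other list up to 3 genes with the smallest p, and the 5 genes most like Trim63 and Fbxo32; Hdac4, Myh6, Ube2e1 and list genes named for passing in single settings were added after their values were seen. The third of the other ligases that passed is not reported here. In sham hearts, deviations of same-numbered libraries correlated by 0.107, 0.260, 0.176 and 0.133 across genes. Differently numbered libraries were not compared, so whether the numbers mark pairs is not known. The printed values come from fits without pairs, except where a replicate block is named. No 2 libraries were identical (highest correlation 0.983).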

Additional observations from a re-analysis of the deposited data

Results flagged for a closer look

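Among 40 groups of 4 libraries (10 genes in 4 groups), 2 held a library far from the other 3 by Dixon's criterion, and chance alone gives about 1 in 20. Fbxo30 stood at 9.76 TPM in WT sham library 2, where the other WT sham libraries were at 3.95, 4.19 and 3.67 TPM. Nedd4 stood at 131.0 TPM in WT 2 weeks TAC library 1, above 106, 105 and 102 TPM in the others; this library is also rich in atrial transcripts and against its label in Vcp.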

How the results depend on the processing

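In each of the 7 comparisons fitted over all groups, 0 of the 10 members passed, and every alternative run kept that count except in WT TAC against WT sham, where it was 4 with the compared groups alone (6.31% of all genes passed as lower) and 3 when libraries rich in atrial transcripts were left out (7.40%). The count of 4 in the WT libraries alone became 0 without the filter on low values (0.429%) and 0 after quantile normalization (2.27%); with single libraries left out it ranged from 0 to 3 (0.222% to 14.9%). A fit of the compared groups alone was not run for the difference of the load response, which uses all 4 groups, nor for 5 weeks, where it is the same fit.

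With the replicate number as a block, 0 members passed in each fit over all groups, the sham comparison included. In the WT libraries alone, where the numbers did not correlate in every pair, 2 passed (Trim54 and Fbxo31).

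Signs of single genes changed as follows. Without the libraries rich in atrial transcripts, Trim55 in sham hearts went to 0.0053, Nedd4 in WT TAC against sham to -0.0041 and Fbxo31 in VCP TG TAC against sham to -0.19. Without the libraries against their Vcp label, Nedd4 in WT TAC against sham went to -0.0041, and Trim54 and Trim55 in VCP TG TAC against sham to 0.10 and 0.15. Rescaling to nuclear genes brought Fbxo31 and Cblb in VCP TG TAC against sham to -0.061 and -0.068 and Cblb in the difference between time points to 0.038, and quantile normalization brought Fbxo32 in WT TAC against sham to 0.049. With single libraries left out, Trim55 in sham hearts ranged from -0.68 to 0.024. In WT TAC against sham, Fbxo30 ranged from -0.013 to 0.39 and Nedd4 from -0.12 to 0.23. In VCP TG TAC against sham, Trim54 ranged from -0.56 to 0.10, Trim55 from -0.56 to 0.15, Fbxo31 from -0.18 to 0.56 and Cblb from -0.13 to 0.36. Of 38 other member differences that the text does not print, 26 changed sign in some alternative and 0 passed in any. The cause of these changes was not tested. Depth is unknown, so the counting error of low levels such as those of Fbxo30 and Cblb is not known.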
